A study of Homo sapiens with 8 samples.

Results

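Open chromatin was examined around 10 genes of the BCL2 family, 3 that keep cells alive (BCL2, BCL2L1 and MCL1) and 7 that promote death (BCL2L11, BBC3, PMAIP1, BAX, BAK1, BID and BAD). A peak was assigned to a gene when its summit lay in the gene body or within 50 kb of one of the gene's start sites, with gene models of GENCODE release 44 on GRCh37. Overlapping peaks of the 4 libraries were merged, which gave 77 regions of 43654 in the genome, 18 at the survival genes and 59 at the death genes.

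Apoptosis through mitochondria is set by the balance among these proteins. BCL2, BCL-XL (the product of BCL2L1) and MCL1 hold the pore-forming proteins BAX and BAK (the product of BAK1) in check, and the BH3-only proteins BIM, PUMA, NOXA, BID and BAD (BCL2L11, BBC3, PMAIP1, BID and BAD) bind the survival proteins or activate the pore formers. In red cell precursors, erythropoietin and stem cell factor are known survival cues, and BCL-XL is needed late in erythroid maturation.

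The cells were HUDEP-2, an erythroid progenitor line from cord blood that was immortalised with doxycycline-inducible viral oncogenes, one of which lowers p53. All libraries analysed carried a control guide (sgControl) and came from 50000 cells. Cells were grown with dexamethasone, SCF, EPO and doxycycline, then starved for 5 h in StemSpan SFEM with penicillin/streptomycin and 1% bovine serum albumin, and given PBS or 50 ng/mL SCF (the ligand of the receptor Kit) for 1 h. The labels list no doxycycline in the starvation medium. ATAC-seq, in which the Tn5 transposase cuts accessible DNA, was run on 2 libraries per treatment, and the 4 sgEGR1 samples were not analysed here. The comparison asks whether accessibility at these genes differed after acute SCF.

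The lists held 29269 to 33616 peaks, of which 53 (PBS replicate 1), 61 (PBS replicate 2), 59 (SCF replicate 1) and 60 (SCF replicate 2) fell in the windows of the 10 genes. Median summit pileup, the number of read tags that the caller piled up at a summit, was 20 to 27. PBS replicate 2 had the longest list and the highest median pileup, and 8 of the 20 regions called in a single library came from it, against 2, 3 and 7 from PBS replicate 1, SCF replicate 1 and SCF replicate 2. As a check of the cell type, 8 of 10 erythroid genes had a peak within 1 kb of a start site in all 4 libraries, with ALAS2 in 1 library and HBG2 in 0. Of 8 genes of other cell types, CD14, EPCAM and COL1A1 had one in all 4, PAX5 in 1, and CD3E, MPO, GP9 and ALB in 0, so that a peak near a start did not by itself mark a cell type.

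The sequences below are the 201 bases around the summit (100 on each side) of the regions on which the results turn, read from GRCh37 (hg19) on the plus strand, with matches to the searched words in capitals. The first is the only region with a peak in each of the 2 SCF libraries and none with PBS, between genes beyond the 3′ end of BCL2, at chr18:60767295-60767495. It held none of the words.
BCL2 downstream region: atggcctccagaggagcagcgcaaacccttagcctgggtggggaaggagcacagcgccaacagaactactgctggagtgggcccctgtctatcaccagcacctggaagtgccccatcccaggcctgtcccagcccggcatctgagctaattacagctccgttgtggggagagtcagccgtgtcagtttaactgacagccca
The second is part of the only region that lost rank with SCF (both SCF ranks 10 points or more below both PBS ranks, where a rank is the percentile of a peak's fold enrichment within its own list, up to 100 for the highest peak), at the shared start of BAD and GPR137. Only the 91 bases outside annotated untranslated regions are shown, at chr11:64053080-64053170. They are rich in C and G and hold no word.
BAD and GPR137 start region: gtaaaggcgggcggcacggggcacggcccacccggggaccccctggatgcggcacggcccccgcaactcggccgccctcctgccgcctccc
The third lies in a BCL2L1 intron at chr20:30263630-30263830 and is shown because it holds 2 GATA words (AGATAA or TGATAA on either strand) and 2 STAT words (TTCNNNGAA), the only window of these genes with both.
BCL2L1 intron: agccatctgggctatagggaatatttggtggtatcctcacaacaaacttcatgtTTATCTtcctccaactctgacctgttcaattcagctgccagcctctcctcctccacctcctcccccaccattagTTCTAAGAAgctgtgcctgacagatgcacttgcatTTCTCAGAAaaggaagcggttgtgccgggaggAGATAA
The fourth lies in a BCL2L11 intron at chr2:111891468-111891668 and holds 3 GATA words.
BCL2L11 intron: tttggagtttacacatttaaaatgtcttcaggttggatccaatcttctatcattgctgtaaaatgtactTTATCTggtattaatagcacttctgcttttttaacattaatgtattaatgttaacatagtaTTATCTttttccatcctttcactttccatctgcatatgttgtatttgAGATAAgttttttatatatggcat
The fifth lies downstream of PMAIP1 at chr18:57585773-57585973 and has the AP-1 word TGANTCA next to its summit.
PMAIP1 downstream region: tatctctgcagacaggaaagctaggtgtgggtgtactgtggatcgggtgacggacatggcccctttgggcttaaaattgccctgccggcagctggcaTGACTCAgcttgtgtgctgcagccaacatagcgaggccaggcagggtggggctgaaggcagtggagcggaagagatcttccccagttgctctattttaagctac
The sixth lies in an intron of GYS1 within the BAX window, at chr19:49486989-49487189, and is shown because its difference in rank, SCF mean minus PBS mean, was the highest of the regions called in all 4 libraries.
GYS1 intron in the BAX window: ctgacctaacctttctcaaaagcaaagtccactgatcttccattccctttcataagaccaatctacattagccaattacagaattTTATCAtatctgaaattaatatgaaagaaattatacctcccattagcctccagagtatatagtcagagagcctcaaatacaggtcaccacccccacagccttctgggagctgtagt

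Accessibility at the BCL2 family genes was largely shared by both treatments. Of the 77 regions, 48 (62.3%) were called in all 4 libraries, against 51.3% of all regions. The share was 61.1% (11 of 18) at the survival genes and 62.7% (37 of 59) at the death genes. A further 20 regions were called in 1 library only (26.0%, against 26.5% of all regions), and none of these ranked above 34.4.

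The windows of the survival genes held fewer regions per length than those of the death genes, and these regions ranked higher, with either treatment. The survival windows spanned 496 kb with 3.63 regions per 100 kb, and the death windows 762 kb with 7.74. At regions called in all 4 libraries, the median rank of survival gene regions was 66.8 and 75.3 with PBS and 72.5 and 81.2 with SCF. That of death gene regions was 49.2 and 49.1 with PBS and 46.4 and 52.1 with SCF. All 4 survival medians lay above all 4 death medians. The medians over all regions of the genome called in 4 libraries (61.6 to 66.3) lay between them. Ranked by pileup instead, the medians were 79.9 to 83.4 at survival and 74.0 to 77.8 at death gene regions, the same order with a smaller distance. The median of pileup rank minus fold enrichment rank was 10.9 points over the 48 regions and -2.80 over all regions called in 4 libraries. The median pileup rank over all regions is not given here. That all regions lie between the 2 groups is therefore shown for fold enrichment only. Regions of 1 gene share a locus, so these medians describe the 10 loci and carry no test.

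**Figure D1:**
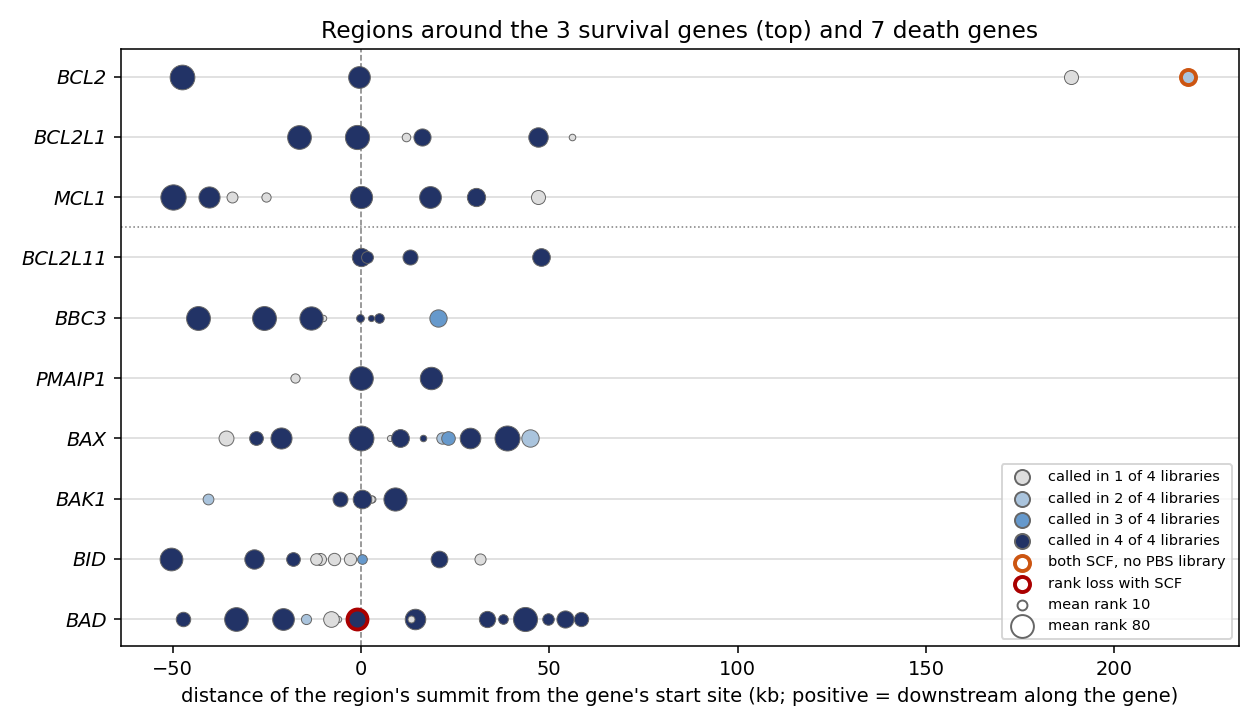
Summits of the 77 regions by distance in kb from the gene's start site (positive is downstream along the gene), 1 row per gene. Point area follows the mean rank, darker fill means more libraries, and thick outlines mark the region with a peak in each SCF library and none with PBS (BCL2, 219.6 kb downstream) and the rank loss (BAD). BAD has 15 regions and PMAIP1 has 3.

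Much of this density belonged to neighbouring genes. The nearest protein-coding start was the gene's own for 32 of 77 regions, 7 at survival genes and 25 at death genes. BAD had 15 regions and BAX 12, with 1 each nearest to its own start, whereas all 4 regions of BCL2L11 and all 3 of PMAIP1 were nearest to their own. BCL2, the longest gene with a body of 197 kb, had 4 regions, or 1.42 per 100 kb. Of the 77 summits, 44 (57.1%, against 40.6% of all regions) lay within 1 kb of some start site, 23 in introns and 10 between genes. Regions near a start were called in all 4 libraries in 34 of 44 cases (77.3%, against 74.9% of all such regions), and the others in 14 of 33 (42.4%, against 35.2%).

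A first rule asked which regions had a peak in each SCF library but none with PBS, and 1 region met it, at BCL2 (1.65% of all regions met this rule). No region was called only with PBS (2.37% of all regions). Among the 48 regions called in all 4 libraries, none gained rank, defined as both SCF ranks exceeding both PBS ranks by 10 points or more. This was 0 of 48, against 2.55% of the 22398 regions of the genome called in all 4 libraries. By the mirrored rule 1 lost rank, at BAD, against 3.04% of the 22398. These 4 counts, each 0 or 1, are too small to tell whether the shares differ from those over the genome. They were sensitive to single libraries: the SCF-only count was 8 without SCF replicate 1, and 4 without SCF replicate 2 or without PBS replicate 2, and the PBS-only count was 8 without PBS replicate 1 and 2 without PBS replicate 2, since 1 library then stood for its treatment.

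The SCF-only region at BCL2 (chr18:60767032-60767502) lay 219.6 kb downstream of the canonical start, beyond the 3′ end of the gene and 38.2 kb from the nearest BCL2 start in the annotation. It ranked 29.9 and 32.6 in SCF replicates 1 and 2, with pileups of 11 and 9 tags, and had no peak in either PBS library. These are weak peaks, below the median pileup of their lists (23 and 20), and an uncalled region has no value in a peak list, so its level with PBS is not known. With a window of 15 kb in place of 50 kb the region was no longer assigned to BCL2 and the count was 0.

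The BAD region (chr11:64051776-64053631) covers the start of BAD, whose protein binds BCL-XL and BCL2 when it is not phosphorylated, and that of GPR137, a membrane protein gene on the other strand. Its summit was 72 bp from a GPR137 start and 0.962 kb upstream of the canonical BAD start, so the measurement cannot be assigned to either gene. It ranked 65.9 and 67.8 with PBS, against 54.9 and 48.9 with SCF. Both SCF values were below both PBS values, by a gap of 11.0 points between the nearest of them. Pileups, not scaled for depth, were 95 and 129 with PBS and 72 and 53 with SCF. Divided by the median pileup of each list they were 4.13 and 4.78 with PBS and 3.13 and 2.65 with SCF. In the limma fit across all regions, log2 fold enrichment was 0.33 lower with SCF (log2 difference -0.33, standard error 0.19, 95% interval -0.74 to 0.09, adjusted p = 0.772), which did not pass the threshold of 0.05. With the recovered pileup in place of fold enrichment the log2 difference was -0.51 (95% interval -0.88 to -0.14, limma adjusted p = 0.720). The gap fell to 7.95 points when peaks were ranked by −log10 p, 5.42 by pileup and 8.17 with lists of equal length, so that the count of rank losses was 0 under each of these.

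No region of the 10 genes passed the limma test on fold enrichment (0 of 48 higher and 0 of 48 lower with SCF). The same held for all 22398 regions tested, of which 0.00% were called higher and 0.00% lower, with a lowest adjusted p of 0.515. With 1 library left out, limma called 0 to 10 regions of the genome higher and 0 to 6 lower, none of them at the 10 genes. In those fits 1 treatment has a single library, which is assumed to vary like the pair of the other treatment. At an unadjusted p under 0.05, 2 of the 48 were higher (3.41% of all regions tested) and 0 lower (3.37% of all regions tested). The 2 were an intron region of BBC3 (log2 difference 0.22, 95% interval 0.02 to 0.43, limma adjusted p = 0.697) and the GYS1 intron in the BAX window (0.45, 0.03 to 0.88, limma adjusted p = 0.719). With the recovered pileup the intervals of both included 0. At that level 1 of the 48 was then higher, 13.2 kb upstream of BBC3 (0.39, 0.10 to 0.69), and 1 lower, the BAD region. Over all 22398 regions, 811 were higher and 737 lower. On fold enrichment, intervals reached from -0.94 to 0.88 over the 48 regions and had a median half-width of 0.40 on the log2 scale. They are unadjusted 95% intervals, whereas a call needed an adjusted p under 0.05 over 22398 regions. Larger differences also went uncalled with 2 libraries per treatment. Over all regions tested the log2 differences ran from -1.07 to 1.26 and none passed. The 0 of 48 therefore does not exclude changes larger than 0.40. An exact permutation test of 2 against 2 libraries cannot give a p below 0.333, and none was run on single regions.

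The median shift in rank was smaller than the median gap between replicates, but the 2 measures are unlike. The median difference, SCF mean minus PBS mean, was 0.473 points at survival gene regions, 0.115 at death gene regions and -0.527 over all regions called in 4 libraries. The median size of the difference was 3.35 points over the 48 regions (5.19 over all regions called in 4 libraries). The median gap between replicates of 1 treatment was 6.17 points with PBS and 6.13 with SCF (6.53 and 7.45 over all regions called in 4 libraries). The first is a difference between means of 2 libraries and the second a gap between single libraries. A smaller first value is therefore partly built in. Ranks were higher with SCF in 26 regions and lower in 22. Both SCF ranks exceeded both PBS ranks in 7 regions, 0 at survival and 7 at death genes (16.0% of all regions called in 4 libraries). They lay below both in 9, 2 at survival and 7 at death genes (19.3% of all regions called in 4 libraries). A difference between survival and death genes in the response was not tested.

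**Figure D2:**
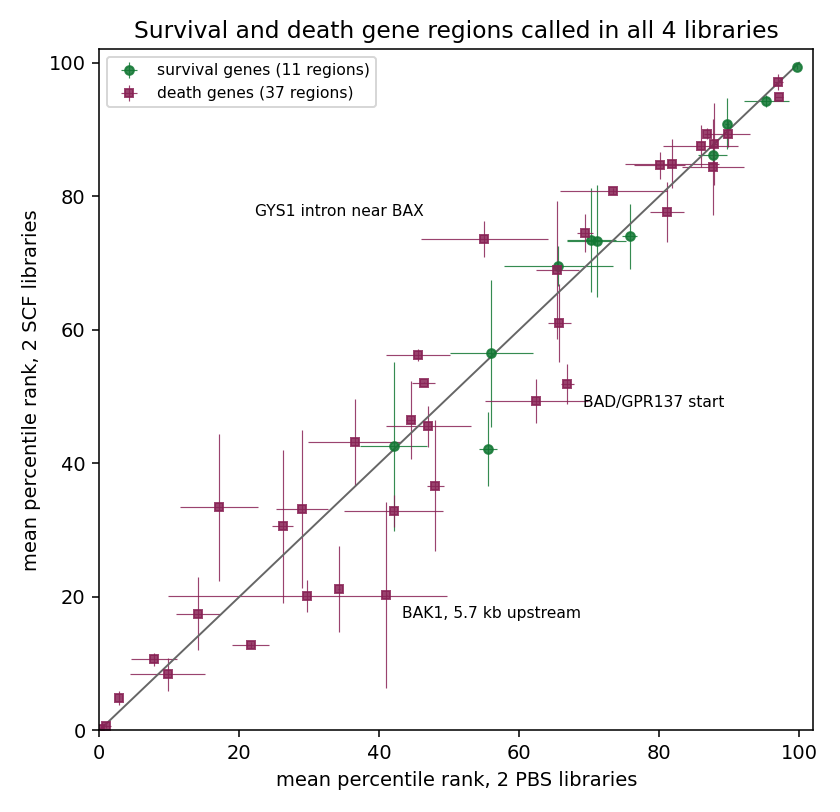
Mean percentile rank of each of the 48 regions in the 2 PBS libraries (x axis) and the 2 SCF libraries (y axis), with bars from the lower to the higher replicate and the line of equality. Survival gene regions (circles) and death gene regions (squares) scatter about the line, with a median difference of 0.473 and 0.115 points.

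Among the survival genes, the BCL2L1 promoter was the most enriched, at ranks 90.0 and 89.4 with PBS and 94.7 and 87.1 with SCF. The SCF values enclosed the PBS values. The MCL1 promoter, whose product is a short-lived survival protein, ranked 74.7 and 76.9 with PBS and 78.9 and 69.1 with SCF. The BCL2 promoter ranked 66.8 and 73.9 with PBS and 65.7 and 81.2 with SCF. In all 3 the treatments overlapped, and the differences of the means (1.18, -1.82 and 3.14 points) were smaller than the gap between the SCF replicates.

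The highest-ranked other region of each survival gene lay at the start of a neighbour. The highest was the start of ENSA, 49.9 kb upstream of MCL1, at 99.7 and 99.7 with PBS and 99.0 and 99.7 with SCF. It lay 245 bp inside the window limit, whereas the nearest region outside a limit, 760 bp beyond that of BAD, had a mean rank of 82.9. The start of KDSR, 47.6 kb upstream of BCL2, ranked 92.1 and 98.5 with PBS and 93.3 and 95.2 with SCF. The start of TPX2, 16.4 kb upstream of BCL2L1, ranked 85.6 and 89.7 with PBS and 84.4 and 88.0 with SCF. At ENSA both SCF ranks were below both PBS ranks, with a difference of means of -0.359 points, and at KDSR and TPX2 the treatments overlapped. The other survival gene region with both SCF ranks below both PBS ranks was a start of ADAMTSL4 (chr1:150521181-150522077), 30.5 kb downstream of MCL1. It ranked 56.9 and 54.2 with PBS and 36.7 and 47.7 with SCF, a difference of -13.4 points, with pileups of 44, 49, 30 and 35 tags. In limma its log2 difference was -0.27 (95% interval -0.73 to 0.19, adjusted p = 0.867). It counted as a rank loss with peaks at a −log10 q of at least 5, with a gap of 5 points and without SCF replicate 2.

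The gene body of BCL2L1 held 2 intron regions called in every library. The one with 2 GATA and 2 STAT words, 46.9 kb downstream of the start, ranked 61.9 and 50.1 with PBS and 45.5 and 67.5 with SCF, and the one 16.1 kb downstream, with 1 GATA word, ranked 37.3 and 46.9 with PBS and 29.9 and 55.2 with SCF. In both, the SCF libraries lay on either side of the PBS libraries. At MCL1, 3 regions were called in 1 library each, and each of these held an AP-1 word. They were the only survival gene regions with that word, and none was called in all 4 libraries.

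The death gene promoter regions called in all 4 libraries ranked from 2.83 to 97.7. A second BAD start region (chr11:64038844-64039074), with its summit 377 bp from a BAD start, was called in PBS replicate 2 only, at a rank of 1.88 and a pileup of 67 tags. Among the pore formers, the BAX promoter was the highest, at 97.7 and 96.5 with PBS and 95.0 and 94.9 with SCF, and the BAK1 promoter stood at 41.0 and 50.2 with PBS and 57.2 and 55.3 with SCF. The SCF values were lower in both libraries at BAX (by 2.22 points in the mean) and higher in both at BAK1 (difference 10.7 points). The BAK1 difference was 5.02 points when peaks were ranked by −log10 p and 2.65 by pileup, and 6.09 without PBS replicate 1. In limma the BAK1 difference was 0.26 on the log2 scale (95% interval -0.19 to 0.71, adjusted p = 0.876).

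The BAK1 window also held the region with the lowest difference in rank, 5.67 kb upstream in an intron of GGNBP1. It ranked 41.0 and 41.0 with PBS, 6.35 in SCF replicate 1 and 34.3 in SCF replicate 2, a difference of -20.7 points in which SCF replicate 1 had the larger share. Pileups there were 20, 28, 12 and 19 tags, or 0.87, 1.04, 0.52 and 0.95 relative to the list medians. The strongest region near BAK1, 9.13 kb downstream of its start, ranked 83.7 and 76.4 with PBS and 82.6 and 86.7 with SCF, without separation.

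**Figure D3:**
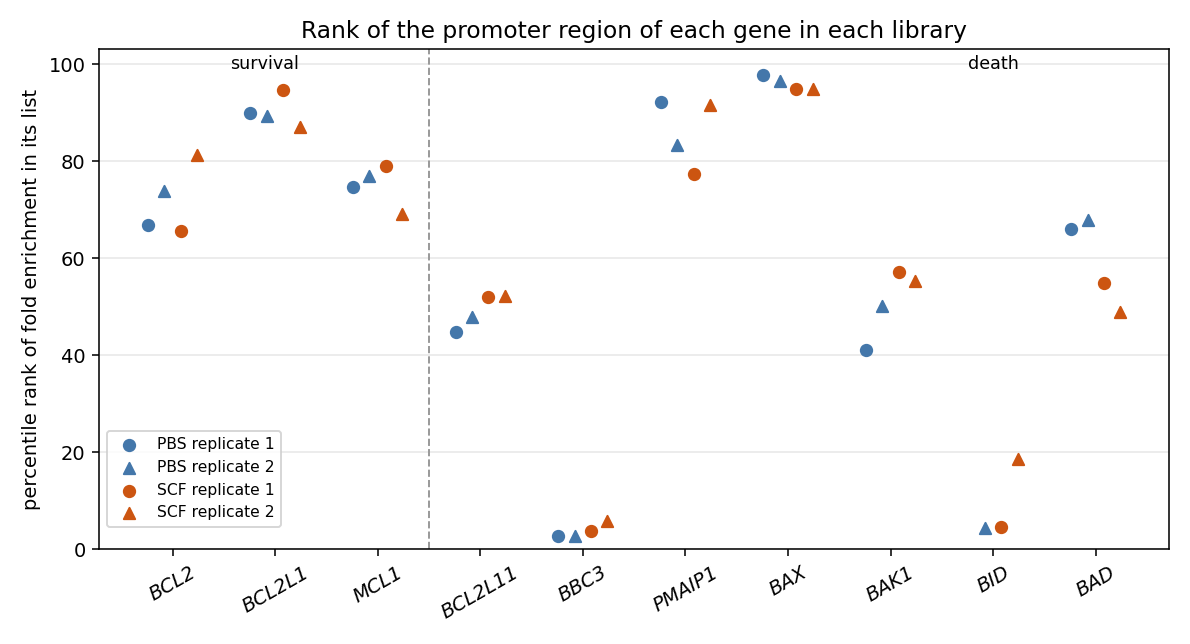
Percentile rank of fold enrichment (y axis) of the promoter region of each gene in the 2 PBS libraries (blue) and the 2 SCF libraries (orange), with circles for replicate 1 and triangles for replicate 2. The BAX promoter lies between 94.9 and 97.7 and the BBC3 promoter between 2.83 and 5.94, and BID has no point for PBS replicate 1, where no peak was called.

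Of the BH3-only genes, PMAIP1 had the highest promoter rank, 92.2 and 83.3 with PBS and 77.3 and 91.6 with SCF, with overlapping treatments. The AP-1 region 18.6 kb downstream of PMAIP1 ranked 65.8 and 81.1 with PBS and 80.3 and 81.3 with SCF. Of its 4 values, only that of PBS replicate 1 stood apart, so the difference of 7.36 points rested on that library.

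BCL2L11, whose product BIM is known to drive death of haematopoietic cells deprived of growth factors, had 2 start regions with summits 1.75 kb apart. The upstream one ranked 44.7 and 48.0 with PBS and 52.0 and 52.1 with SCF, and the downstream one 19.0 and 24.3 with PBS and 13.2 and 12.3 with SCF. The first was higher in both SCF libraries and the second lower in both. The difference of 5.76 points at the upstream region was 1.86 when peaks were ranked by −log10 p and 0.171 by pileup. In limma neither passed, with log2 differences of 0.15 (95% interval -0.30 to 0.61, adjusted p = 0.942) and -0.17 (-0.61 to 0.27, adjusted p = 0.930). An intron held the region with 3 GATA words, at 32.7 and 25.3 with PBS and 21.3 and 45.1 with SCF. A region past the 3′ end of the gene, in an intron of the non-coding gene MIR4435-2HG, held an AP-1 word and ranked 43.8 and 45.2 with PBS and 40.7 and 52.4 with SCF.

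The BID promoter was called in 3 libraries, not in PBS replicate 1, at ranks of 4.43 (PBS replicate 2), 4.66 and 18.6 (SCF replicates 1 and 2) and pileups of 13, 11 and 15. BID was the only one of the 10 genes without a promoter region called in every library. The strongest region assigned to BID lay in an intron of MICAL3 and ranked 78.7 and 83.5 with PBS and 82.2 and 73.2 with SCF. The summit of its highest-ranked peak was 58 bp beyond the window limit, and the region was kept because another library's summit lay inside.

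BBC3, which encodes the p53 target PUMA, stood apart from the other genes. Its promoter ranked 2.83 and 2.85 with PBS and 3.80 and 5.94 with SCF, the lowest of the promoters called in all libraries, although pileups were high at 80, 122, 83 and 76 tags. The deposited fold enrichment divides the pileup by the local background. At this promoter that background was 22.8, 37.7, 22.4 and 19.98 tags, against medians of 3.09, 4.46, 2.94 and 2.94 over all regions called in 4 libraries.

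Ranked by pileup, the BBC3 promoter stood at 84.9 and 89.3 with PBS and 86.9 and 88.0 with SCF. The 2 other regions in the BBC3 body, 4.77 and 2.71 kb downstream of the start, had mean fold enrichment ranks of 9.10 and 0.11 and mean pileup ranks of 90.1 and 78.4. In all, 5 of the 48 regions ranked over 50 points higher by pileup than by fold enrichment (10.4%, against 2.34% of all regions called in 4 libraries), namely these 3, the downstream BCL2L11 start region and the start of PPP1R14B near BAD. Their summit windows had 68.7% to 81.6% C and G, against a median of 54.2% over all regions. Their mean local background stood at percentiles 94.3 to 99.6 among all regions called in 4 libraries. The level of BBC3 relative to the other genes therefore depended on which of the measures was ranked, whereas the order of treatments did not reach the limma threshold with either.

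**Figure D4:**
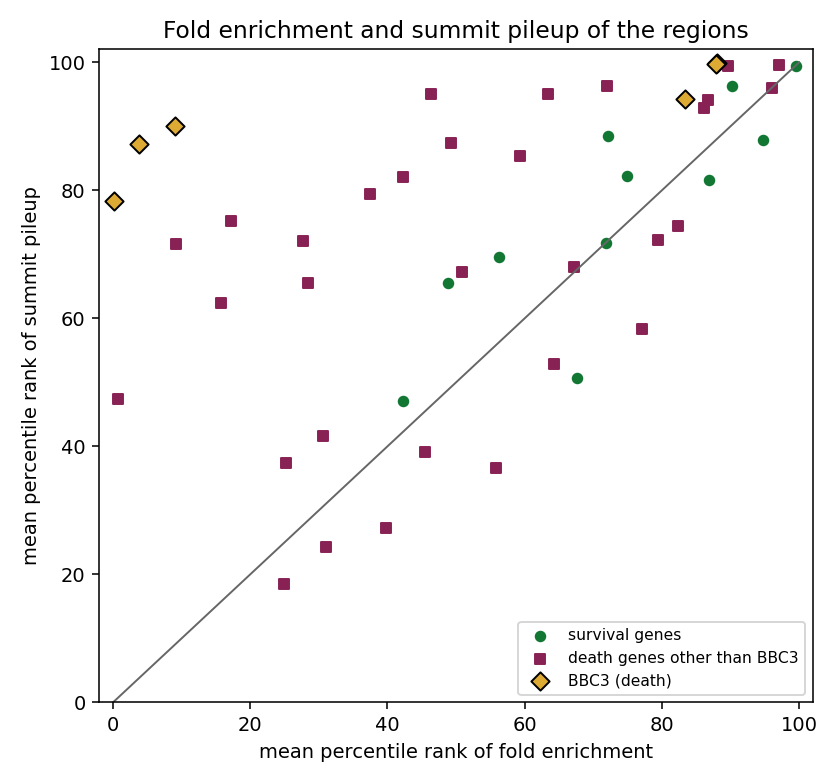
Mean percentile rank over the 4 libraries of fold enrichment (x axis) and of summit pileup (y axis) for the 48 regions, with the line of equality. The 3 regions in the BBC3 body lie at the upper left, at fold enrichment ranks of 0.11 to 9.10 and pileup ranks of 78.4 to 90.1, and the 3 regions of the BBC3 window outside its body at the upper right.

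The intron region of BBC3 at 2.71 kb had a fold enrichment of 2.09 and 1.93 with PBS and 2.30 and 2.50 with SCF. Both SCF values were higher, but its rank was 0.05 to 0.24, at the foot of each list. Elsewhere near BBC3, the start of CCDC9 ranked 86.4 and 87.2 with PBS and 90.2 and 88.5 with SCF.

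In the gene-dense BAX and BAD windows the highest-ranked other regions again lay at neighbours. The start of RUVBL2 ranked 96.4 and 97.6 with PBS and 96.0 and 98.3 with SCF, and that of FKBP2, in the BAD window, 86.7 and 93.0 with PBS and 91.3 and 87.4 with SCF. The GYS1 intron with a GATA word, printed above, ranked 64.1 and 46.0 with PBS and 70.9 and 76.3 with SCF, a difference of 18.6 points and the highest of the 48. Both SCF values exceeded both PBS values. Its PBS replicates were 18.1 points apart, and its pileups were 25, 21, 27 and 30 tags.

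Sequence words were searched on both strands of the 201-base windows and are given as descriptions, beside their share over 43569 windows of the same length. Overlaps between different words were not counted apart. AP-1 (TGANTCA) was found in 7 of 77 windows (9.09%, against 8.43% over all regions). GATA words were found in 12 (15.6%, against 25.4%), EGR (GCGTGGG) in 1 (1.3%, against 3.80%), and STAT words in 3 (3.90%, against 5.09%). The single EGR word was at the BAD and GPR137 start, outside the 91 bases shown. The p53 half-site was found in 3 windows (3.90%, against 5.00%), in the windows of BAX, BBC3 and BCL2L11 but not in the BBC3 body. The cAMP response element (TGACGTCA), the serum response element and FOXO (TGTTTAC) were found in 0 windows (0.682%, 0.918% and 2.16% over all regions).

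Another 17 genes of the same pathway, from other BCL2 family members to caspases and their inhibitors, had 79 regions, 45 of them (57.0%, against 51.3% of all regions) called in all 4 libraries. Of the 79 regions 2 were SCF-only, in the windows of BIRC3 and BMF (2.53%, against 1.65% of all regions), and 0 were PBS-only (against 2.37%). Of the 45, 3 gained rank, in the windows of CASP9, BIRC5 and XIAP (6.67%, against 2.55% of all regions called in 4 libraries). Another 3 lost rank, in the windows of BIRC5, BIK and XIAP (6.67%, against 3.04% of all regions called in 4 libraries). These regions were assigned by window alone. They can lie at starts of other genes, and their nearest genes are not given here. By limma 0 of the 45 passed in either direction (lowest adjusted p = 0.586). At an unadjusted limma p under 0.05, 3 were higher (6.67%, against 3.41% of all regions tested) and 0 lower (against 3.37%). Whether the list differs from other regions was not tested. The region in the window of CASP9, the initiator caspase of the mitochondrial pathway, ranked 66.5 and 65.0 with PBS and 91.2 and 87.3 with SCF, with pileups of 18, 23, 33 and 31. The 2 regions in the window of BIRC5 (survivin) ranked 27.0 and 24.7 with PBS and 45.2 and 41.2 with SCF, and 41.0 and 41.6 with PBS and 20.4 and 21.2 with SCF. The window of XIAP, a caspase inhibitor, also held a region in each direction. The gain ranked 62.9 and 64.2 with PBS and 75.0 and 77.4 with SCF, and the loss 53.6 and 59.9 with PBS and 25.6 and 43.2 with SCF. The region in the window of BIK (a BH3-only gene) ranked 45.6 and 50.8 with PBS and 25.6 and 27.7 with SCF. In each of these rank gains and losses the treatments do not overlap, which the rule requires.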

How the data were processed

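ATAC-seq peak lists of 4 HUDEP-2 sgControl libraries (2 PBS, 2 SCF) were analysed. Per the methods, the authors ran paired-end reads through ENCODE's ATAC-seq pipeline, and peaks were called per library. The submitters' processing notes name bcl2fastq, Bowtie2 and SAMtools without versions. The methods and notes name hg38, but the deposited lists and the series text name hg19, and 0 peaks ran past the ends of the GRCh37 chromosomes. Caller settings are not given in the sources used here. Each deposited peak has a score (not used), a fold enrichment (a ratio of summit pileup to local background, as the authors' caller gave it), and a −log10 p and −log10 q value from the authors' caller. Read counts per region were not analysed here.

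Pileups and local backgrounds were recovered from the fold enrichment and −log10 p, and came out whole within a relative error of 0.0001 for 100% of peaks. Peaks sharing at least 1 bp were merged, and ranks are percentiles of fold enrichment within a list. Fold enrichment (log2, quantile normalized) was compared with limma 3.58.1 in R 4.3.3 (eBayes with trend, two-sided, Benjamini-Hochberg adjustment over all 22398 regions called in 4 libraries), a step tested on simulated data. Replicates were biological duplicates per the methods, with no culture named in the labels, so p-values measure the spread between these samples. In limma the spread of a region was weighted toward the trend over all regions (11.53 prior against 2 residual degrees of freedom). A region without a call has no value. Pileups in tags are not scaled, so they vary with depth and between samples as well as by counting error.

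The genes, lists and rules were chosen with earlier results of these data known. All 10 genes are named, each with its promoter region (within 1 kb of a coding start), its highest-ranked other region, and every region in a class of change. Other regions named (the introns of BCL2L1 and BCL2L11, the AP-1 regions of MCL1 and BCL2L11, the second BAD start, the ADAMTSL4 start, and the extremes in rank or in pileup) were picked after their values were seen. Pathway genes are named only where a region was in such a class. A listed marker gene is not reported here. The alternatives were a stricter q, equal list lengths, other windows, overlaps and rank gaps, other ranked values, other normalizations and each library left out.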

Additional observations from a re-analysis of the deposited data

How the results depend on the processing

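Among the regions of the 10 genes, limma called 0 in either direction with median centring, without regions of mean rank under 20, with a pseudocount of 1, with the recovered pileup and with the replicate number as a block. It also called 0 with each library left out, where 1 treatment has a single library, so these fits say little about stability. No label says that a number marks a shared batch. The correlation of same-numbered deviations over all regions called in 4 libraries was 0.0239. With 2 libraries per treatment it cannot tell whether same-numbered samples shared a batch, which is not known. The median rank differences moved by less than the spread between replicates under every alternative. With a library left out they ranged from -3.25 to 0.887 points at survival genes and from -0.586 to 1.23 at death genes.

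The SCF-only count (1) became 0 with a 15 kb window, 3 with a 100 kb window, 2 with lists of equal length and 2 with summits matched within 150 bp. The PBS-only count (0) became 1 with a 100 kb window and 1 with summits matched within 150 bp. Rank gains (0) became 1 with lists of equal length and 2 with a gap of 5 points. Rank losses (1) became 3 at a −log10 q of at least 5, 2 with a 100 kb window and 5 at the 5-point gap. They became 0 at a 20-point gap, with lists of equal length, or ranks by −log10 p or pileup. Leaving out 1 library at a time gave 1 to 8 SCF-only, 0 to 8 PBS-only, 1 to 4 gained and 2 to 4 lost regions. The BAD region was among the losses and the BCL2 region among the SCF-only regions each time. The rules fix this in advance, since dropping a library can only widen a gap or remove a condition. It therefore says nothing about the stability of these 2 regions. Gains numbered 1 without PBS replicate 1, 3 without PBS replicate 2, 4 without SCF replicate 1 and 1 without SCF replicate 2, and losses 4, 2, 2 and 4 in the same order. The cause of these shifts was not tested beyond the construction of the rules, in which 1 library then stands for its treatment.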
